A study of Sus scrofa with 18 samples.

Results

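The dystrophin-glycoprotein complex is an assembly of proteins that spans the sarcolemma, the plasma membrane of the muscle fibre, and joins the actin cytoskeleton inside the fibre to the laminins of the basement membrane outside it. Its transcripts were examined in gastrocnemius, a calf muscle, of growing pigs that had been fed diets with or without insect meal. Members were all array probe sets whose single gene symbol in the annotation of the array was DMD, UTRN, DAG1, SGCA, SGCB, SGCD, DTNA or SSPN. Of these 8 symbols, 5 were found, on 6 of 25388 probe sets: DMD on 2 probe sets and UTRN, SGCA, SGCB and SSPN on 1 each. DAG1, SGCD and DTNA stood alone on no probe set and were not analysed here.

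Gene expression was measured on 18 arrays, 1 per pig, of 6 pigs each of groups CON, IM5 and IM10. The animals were male crossbred pigs of Piétrain × (German Landrace × German Edelschwein), 5 weeks old at the start, fed for 4 weeks and killed on day 29. Insect meal, from mass-reared mealworms (Tenebrio molitor), made up 0% of the diet of group CON, whose main protein source was soybean extraction meal, 5% of that of group IM5 in place of 50% of the soybean extraction meal, and 10% of that of group IM10 in place of 100% of it. According to the paper, the diets of groups IM5 and IM10 also held added cellulose, and more crude fibre than the diet of group CON. Added plant oils and amino acids differed in amount too. Insect meal and these other differences cannot be told apart here. Pigs fed alike shared pens, and since it is not stated which pig lived in which pen, every test treated the individual pig as independent.

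Dystrophin, encoded by DMD, binds actin at one end and the transmembrane protein dystroglycan at the other, and its loss causes Duchenne muscular dystrophy in humans. The sarcoglycans (SGCA and SGCB among them) and sarcospan (SSPN) form a subcomplex that stabilises the binding of dystroglycan to laminin, and mutations of SGCA or SGCB cause limb-girdle muscular dystrophy in humans. Utrophin, encoded by UTRN, is the autosomal relative of dystrophin. It lies at the neuromuscular junction of adult fibres and is also made by endothelial cells.

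All values are log2 expression values, so that a difference of 1 stands for a doubling. The arrays were alike, with pairwise correlations from 0.977 to 0.991 and medians within 0.09 of each other. IM10 replicate 2 stood apart, with the lowest mean correlation to the remaining arrays (0.981), and that pig also had the highest mean level of 12 of 14 listed macrophage and monocyte markers. Over that list, the range was 5.64 to 6.43 in group CON, 5.72 to 6.28 in IM5 and 5.64 to 7.43 in IM10. The labelled tissue was borne out by 7 of 12 listed muscle fibre markers, namely ACTA1, MYH1, MYH7, MYLPF, NEB, RYR1 and TNNC2, whose probe sets lay between the 99.3rd and 99.9th percentile of the arrays. The muscle was analysed whole, so that fewer cells of a type and less RNA per cell cannot be told apart.

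No change of any of the 5 genes passed the test with either insect meal diet. By the thresholds of the study, applied to a limma fit of all 18 arrays, a transcript was called changed when its fold change (FC) was beyond 1.2 and its P, before adjustment, under 0.05. In group IM10 compared with group CON, 0 of 6 probe sets of the complex were called, against 2.29% of all probe sets. The corresponding counts were 0 of 6 in group IM5 compared with group CON, against 2.1% of all, and 0 of 6 in group IM10 compared with group IM5, against 2.75%. At those shares, a count of 0 among 6 probe sets does not set the members apart from the array. After Benjamini-Hochberg adjustment over all probe sets, the share called was 0.00394%, which is 1 of 25388, in group IM10 compared with group CON and 0% in each of the other comparisons, and no member was among them. The lowest unadjusted P of a member in any comparison was 0.547, and the limma adjusted p-values of the members lay between 0.977 and 0.998. The methods' t-test at the same thresholds also called 0 members in each comparison. All 18 changes (6 probe sets in 3 comparisons) were smaller than 1 within-group SD of their probe set, the largest in size being 0.08.

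DMD was represented by a bright and a dim probe set, 15336155 and 15336160. On the bright one, which lay at the 99.4th percentile of the arrays, the values of the 6 pigs of group CON were 10.78, 11.04, 10.85, 10.83, 10.89 and 10.73. Group IM5 had 10.64, 10.91, 10.79, 10.72, 10.91 and 10.87, and group IM10 10.69, 10.73, 10.91, 10.93, 10.95 and 10.69. The 3 groups overlapped over most of their range, the highest value lay in group CON and the lowest in group IM5. The means were 10.85 ± 0.107 in group CON, 10.81 ± 0.110 in IM5 and 10.82 ± 0.126 in IM10 (SD, n = 6 each). The log2 change was -0.04 (standard error 0.0791, 95% confidence interval -0.20 to 0.13, limma adjusted p = 0.994) in group IM10 compared with group CON, which as FC lies between 0.870 and 1.09. In group IM5 compared with group CON it was -0.05 (interval -0.21 to 0.12, limma adjusted p = 0.998). This was the steadiest probe set of the complex among pigs fed alike. Its within-group SD of 0.115 lay at the 7.58th percentile among the probe sets outside the dimmest 30%.

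The dim DMD probe set lay at the 25.4th percentile of the arrays, within the dimmest 30% of probe sets, where a value says little about the transcript. It ranged from 3.45 to 4.00 in group CON, from 3.52 to 3.76 in IM5 and from 3.34 to 3.89 in IM10. Its log2 change was -0.04 (standard error 0.0997) in group IM10 compared with group CON and -0.02 in group IM5 compared with group CON, so the direction was the same on both DMD probe sets but each change was smaller than its standard error.

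UTRN had 7.12, 6.82, 6.83, 6.91, 6.94 and 6.97 in the pigs of group CON. In group IM5 the values were 7.14, 6.70, 6.99, 6.99, 6.70 and 7.26, and in group IM10 7.06, 7.05, 6.79, 6.98, 6.72 and 7.15. Group IM5 held both the lowest and the highest pigs, and its values enclosed those of both other groups. The mean was 6.93 ± 0.110 in group CON, 6.96 ± 0.228 in IM5 and 6.96 ± 0.168 in IM10 (SD, n = 6 each). Against group CON the log2 change was 0.03 in group IM10 (standard error 0.103, 95% confidence interval -0.19 to 0.24, limma adjusted p = 0.997) and 0.03 in group IM5 (interval -0.18 to 0.25). Like those of the bright DMD probe set, both changes of UTRN against group CON were smaller than their standard errors.

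Among the sarcoglycans, SGCB (beta-sarcoglycan) varied over 0.93 between the lowest and the highest of the 18 pigs. Its values were 10.30, 10.48, 10.22, 10.29, 10.01 and 9.64 in group CON, 9.93, 10.57, 10.16, 10.04, 10.24 and 10.32 in IM5, and 9.88, 9.98, 10.52, 10.26, 10.49 and 9.78 in IM10. Pigs of each group lay at both ends of that range, and the group means of 10.16 ± 0.295 (CON), 10.21 ± 0.225 (IM5) and 10.15 ± 0.317 (IM10) differed far less than the pigs within a group did (SD, n = 6 each). The log2 change in group IM10 compared with group CON was -0.005 (standard error 0.150, 95% confidence interval -0.32 to 0.31, limma adjusted p = 0.997). It was 0.05 in group IM5 compared with group CON (interval -0.26 to 0.37). SGCA (alpha-sarcoglycan) had 7.36, 8.03, 7.80, 7.75, 7.71 and 7.75 in group CON, 7.71, 7.80, 7.89, 7.86, 7.10 and 7.58 in IM5, and 7.84, 7.49, 7.67, 7.75, 7.60 and 7.87 in IM10. The lowest value belonged to IM5 replicate 5 and the highest to CON replicate 2, with group IM10 lying wholly between them. The change of SGCA in group IM5 compared with group CON, -0.08 (standard error 0.125, interval -0.34 to 0.18, limma adjusted p = 0.998), was the largest of the 18, and in group IM10 compared with group CON it was -0.03 (interval -0.29 to 0.23).

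SSPN, which encodes sarcospan, had 8.79, 8.77, 8.39, 8.65, 8.96 and 8.28 in group CON. The values were 8.47, 8.98, 8.76, 8.61, 8.19 and 8.60 in group IM5 and 8.37, 8.22, 8.99, 8.89, 8.93 and 8.29 in group IM10. In group IM10 replicates 3, 4 and 5 lay near the top of all pigs and replicates 1, 2 and 6 near the bottom, whereas the other groups also had pigs in between. Means were 8.64 ± 0.258 in group CON, 8.60 ± 0.266 in IM5 and 8.615 ± 0.357 in IM10 (SD, n = 6 each). The log2 change was -0.025 (standard error 0.157, 95% confidence interval -0.35 to 0.30, limma adjusted p = 0.997) in group IM10 compared with group CON and -0.04 (interval -0.37 to 0.29) in group IM5 compared with group CON. The within-group SD of 0.297 lay at the 88.8th percentile among the probe sets outside the dimmest 30%, and that of SGCB, 0.282, at the 86.5th percentile.

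**Figure D1:**
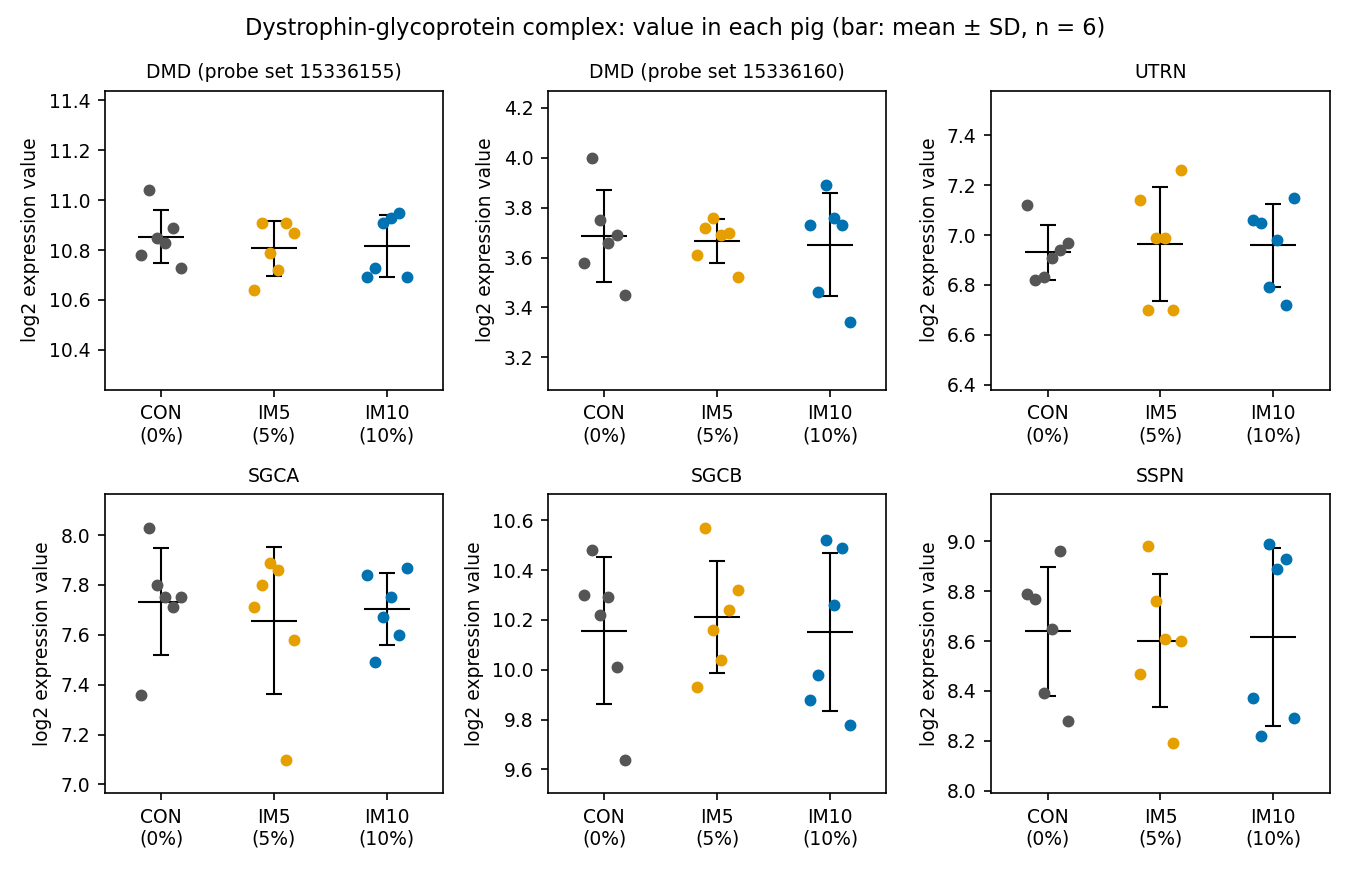
Log2 expression value of each pig for the 6 probe sets of the complex, by group (CON, 0% insect meal; IM5, 5%; IM10, 10%), with the mean and SD of 6 pigs as bars. The vertical axes differ between panels. The groups overlap in every panel, and in group IM10 the SSPN values fall into 3 pigs from 8.89 to 8.99 and 3 from 8.22 to 8.37.

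Both doses were compared with the same 6 control pigs, so those comparisons are not independent of each other. Of the 6 probe sets, 1 was higher and 5 were lower in group IM10, and 2 were higher and 4 lower in group IM5, than in the control pigs. The median log2 change of the members was -0.03 in group IM10 and -0.03 in group IM5 compared with group CON, beside -0.002 and 0 over all probe sets. Group IM10 compared with group IM5 gave 3 higher and 3 lower, with changes between -0.06 (SGCB) and 0.05 (SGCA) and a median of 0.003 beside -0.003 over all probe sets. How closely these data bound a change depended on the gene. In each comparison the 95% confidence intervals of UTRN and of the bright DMD probe set lay within an FC of 1.2 either way, whereas those of SGCA, SGCB and SSPN reached beyond it. The interval of the dim DMD probe set also lay within 1.2, but at its brightness it bounds no change of DMD. Over all members and comparisons the intervals ran from an FC of 0.773 (SGCB, group IM10 compared with group IM5) to 1.29 (SGCB, group IM5 compared with group CON). Without IM10 replicate 2, the changes in group IM10 compared with group CON were 0.008 for UTRN, 0.013 for SGCA, 0.029 for SGCB, 0.054 for SSPN, and -0.019 and 0.002 for the bright and the dim DMD probe set, and again none was called.

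**Figure D2:**
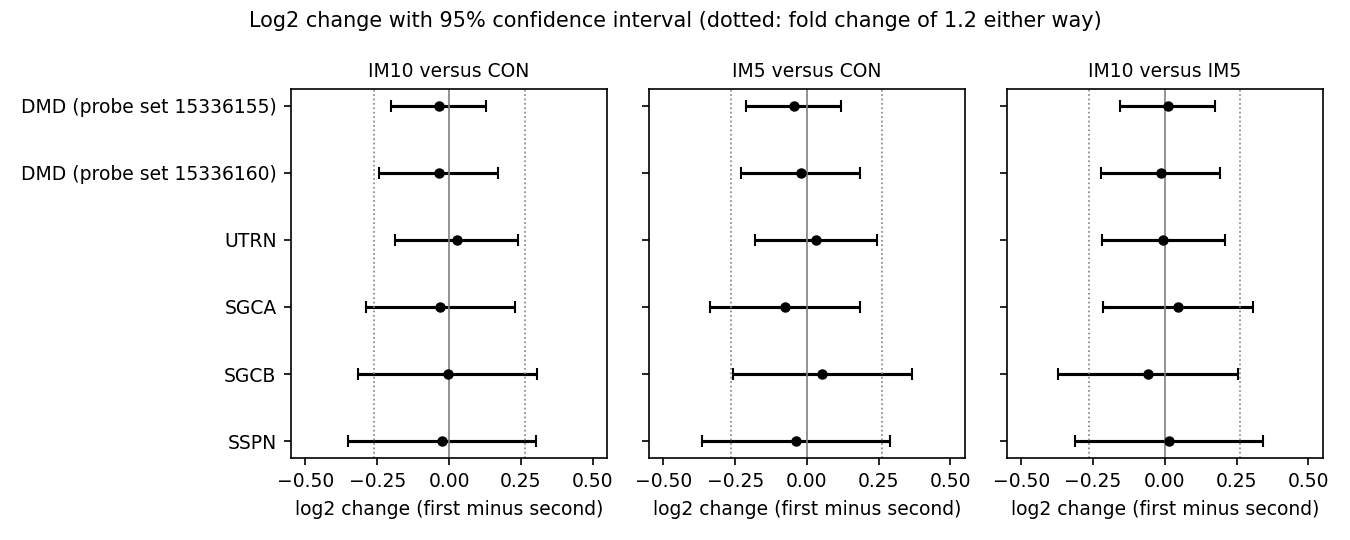
Log2 change of each probe set of the complex (point) with its 95% confidence interval from limma (line) in group IM10 compared with group CON, group IM5 compared with group CON and group IM10 compared with group IM5. The dotted lines mark an FC of 1.2 either way. Every interval spans 0, and those of UTRN and of both DMD probe sets, the dim one included, stay between the dotted lines.

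The other genes that work with the complex were counted from lists of its partners. Together these lists held 40 probe sets of 36 further genes on the array, and 0 of them were called in group IM10 compared with group CON and 0 in group IM5 compared with group CON. Their median log2 changes were -0.06 and -0.03, beside -0.002 and 0 over all probe sets. In group IM10 compared with group IM5, 0 rose and 2 fell, which is 2 of 40 against 2.75% of all probe sets, with a median of -0.04 beside -0.003.

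Further sarcoglycans were present with 2 probe sets, SGCE and SGCZ, and neither was called, with changes against group CON of -0.07 and 0.19 in group IM10 and of -0.02 and 0.20 in group IM5. SGCZ lay at the 10.3rd percentile of the arrays, well within the dimmest 30%, so its values say little about the transcript. The cytoplasmic side was represented by NOS1, the neuronal nitric oxide synthase that the complex anchors at the sarcolemma, with 2 probe sets, and by the syntrophin gene SNTB1, whose product is an adaptor of the complex. Of these 3 probe sets 0 were called in any comparison. SNTB1, singled out after its values were seen, had the widest change of all listed partners, -0.43 in group IM10 compared with group IM5 (standard error 0.208, 95% confidence interval -0.86 to 0.01, limma adjusted p = 0.931), and its means were 8.88 in group CON, 8.995 in IM5 and 8.57 in IM10. Among the genes listed for the integrin axis and the costamere cytoskeleton, 0 of 8 were called in any comparison. Their changes lay between -0.09 and 0.10 in group IM10 compared with group CON.

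The enzymes listed for the glycosylation of dystroglycan gave 15 probe sets of 14 genes, of which 0 were called in any comparison, with changes between -0.25 and 0.22 in group IM10 compared with group CON. The largest rise was that of TMEM5 (0.22, unadjusted P = 0.0623 in limma), and DPM1 and DPM2 changed by -0.002 and 0. Several enzymes came close to the thresholds in that comparison. An unadjusted P under 0.05 in limma, at any FC, was reached by 4 of 15 (0 higher, 4 lower), against 4.38% of all probe sets, and by 0 of 6 members of the complex. These 4, singled out after their values were seen, missed the call because their FC lay between 0.839 and 0.892, inside 1.2, and the limma adjusted p of each was 0.991. DPM3, a subunit of the enzyme that makes the mannose donor, had 4.99, 4.74, 5.17, 4.96, 4.90 and 4.71 in group IM10, against 5.19, 5.07, 5.17, 5.07, 5.21 and 5.18 in group CON. Of the 6 pigs of group IM10, 5 lay below every pig of group CON. Its log2 change was -0.24 (standard error 0.0921, unadjusted P = 0.0181 in limma), and that of B3GALNT2 -0.25 (unadjusted P = 0.0337), of B4GAT1 -0.25 (unadjusted P = 0.0377) and of 1 of the probe sets of POMGNT1 -0.165 (unadjusted P = 0.0488, and 0.0597 on the other), the last 3 being glycosyltransferases. In group IM5 compared with group CON the changes of these 4 were -0.01, -0.11, -0.11 and -0.10, and in none was P under 0.05. Without IM10 replicate 2, the changes in group IM10 compared with group CON were -0.20 for DPM3, -0.18 for B3GALNT2, -0.198 for B4GAT1 and -0.12 for POMGNT1, and only that of DPM3 still had P under 0.05 (unadjusted P = 0.0467 in limma). The count of calls in this list was 1 to 3 instead of 0 without CON replicate 1, 2, 4 or 6 or IM10 replicate 3, 4 or 6.

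Of the extracellular partners, 8 probe sets of 6 genes were measured, and LAMA2 alone was called, in group IM10 compared with group IM5 only. LAMA2 encodes the alpha-2 chain of the muscle laminin that dystroglycan binds, and its loss causes a congenital muscular dystrophy in humans. It had 8.86, 8.33, 8.78, 9.06, 8.93 and 8.88 in group IM10, against 8.86, 8.92, 8.85, 9.06, 9.35 and 9.40 in group IM5. Group CON had 8.82, 9.03, 8.73, 8.95, 9.02 and 9.03. IM10 replicate 2 was the lowest pig and IM5 replicates 5 and 6 the highest, while the remaining pigs overlapped. LAMA2 fell by 0.27 on the log2 scale in group IM10 compared with group IM5 (standard error 0.120, unadjusted P = 0.0379 and adjusted p = 0.931 in limma), an FC of 0.831. The call was lost in the limma fit without IM10 replicate 2 (-0.171), in that without IM10 replicate 3 (-0.261) and in those without IM5 replicate 4, 5 or 6 (-0.269, -0.211 and -0.201). Compared with group CON, LAMA2 was not called in group IM10 (-0.12) or group IM5 (0.14).

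The sarcolemma repair genes were measured with 4 probe sets, of ANO5, CAPN3, DYSF and TRIM72. Of these, 1 was called, and in group IM10 compared with group IM5 only: ANO5, which encodes a membrane protein needed for resealing the damaged sarcolemma and is mutated in a limb-girdle muscular dystrophy of humans. ANO5 had 8.72, 8.83, 9.25, 9.19, 9.26 and 8.76 in group IM10, against 8.91, 9.24, 9.33, 9.16, 9.68 and 9.40 in group IM5. The values of group CON were 9.16, 9.55, 9.33, 9.39, 9.20 and 8.89. IM10 replicates 1, 2 and 6 were the lowest of all 18 pigs, and the other 3 pigs of group IM10 lay within the range of the other groups. ANO5 fell by 0.285 in group IM10 compared with group IM5 (standard error 0.134, unadjusted P = 0.0460 and adjusted p = 0.931 in limma). Leaving out any of 11 of the 18 pigs ended this call (CON replicates 1, 3, 4 and 5, IM5 replicates 2, 3, 5 and 6 and IM10 replicates 1, 2 and 6), with changes between -0.36 and -0.21 over all 18. Against group CON, ANO5 changed by -0.25 in group IM10 (unadjusted P = 0.0750 in limma) and by 0.03 in group IM5, and was called in neither.

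Whereas the group means hardly differed, individual pigs fed alike differed in these transcripts, and several members did so together. To show this, the deviation of each pig from the mean of its group was correlated between all 15 pairs of the 6 probe sets over 18 pigs. Of the 15 pairs, 9 had positive and 6 negative Pearson r, and 9 passed a permutation test after Benjamini-Hochberg adjustment over the 15 pairs. Those 9 include the pairs of the dim DMD probe set with the bright one, UTRN, SGCB and SSPN, so DMD enters the count more than once. The test shuffled the deviations freely over all 18 pigs. Removing the group means leaves fewer free values, so its p-values are somewhat too small. Pigs with more DMD also had more SGCB, with r = 0.83 (permutation p = 7e-05, adjusted p = 0.00105) and Spearman's rho = 0.79 (permutation p = 0.00011, adjusted p = 0.00165). Without the 2 pigs farthest from the median of DMD, r was 0.80. It was 0.66 in group CON, 0.88 in IM5 and 0.94 in IM10, and 0.83 without IM10 replicate 2. Among 13256 other probe sets with 1 gene symbol, SGCB was the 15th most like the bright DMD probe set in this measure. The bright DMD probe set was the 39th most like SGCB. SGCB and SSPN also varied together, with r = 0.69 (permutation p = 0.00176, adjusted p = 0.00945) and rho = 0.69 (permutation p = 0.00194, adjusted p = 0.0097). This r was 0.59 without the 2 farthest pigs, and 0.49 in group CON, 0.51 in IM5 and 0.94 in IM10. In group IM10 the same 3 pigs, replicates 3, 4 and 5, had the 3 highest values of DMD, SGCB and SSPN, as well as the 3 highest of ANO5.

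UTRN ran opposite to DMD among pigs fed alike, with r = -0.65 (permutation p = 0.00384, adjusted p = 0.0115) and rho = -0.72 (permutation p = 0.00099, adjusted p = 0.00742). Without the 2 pigs farthest from the median of DMD, r was -0.62. The sign was the same within each group, at -0.65 in group CON, -0.54 in IM5 and -0.85 in IM10. Of 13256 probe sets, UTRN was the 130th most opposed to the bright DMD probe set, which was the 245th most opposed to UTRN. UTRN also ran opposite to SGCB, with r = -0.57 (permutation p = 0.0144, adjusted p = 0.0239) and rho = -0.59 (permutation p = 0.0114, adjusted p = 0.0286), but unevenly over the groups, at -0.24 in group CON, -0.49 in IM5 and -0.96 in IM10. Without the 2 pigs farthest from the median of UTRN it was -0.54. With SSPN, UTRN had r = -0.30 (permutation p = 0.217, adjusted p = 0.325) and rho = -0.39 (permutation p = 0.11, adjusted p = 0.165).

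SSPN varied with DMD less closely, with r = 0.59 (permutation p = 0.0115, adjusted p = 0.0239) and rho = 0.53 (permutation p = 0.026, adjusted p = 0.0434), and this was uneven over the groups, with r of 0.51 in group CON, 0.10 in IM5 and 0.96 in IM10. Without the 2 farthest pigs it was 0.61. The dim DMD probe set followed the bright one, with r = 0.67 (permutation p = 0.002, adjusted p = 0.00945) and rho = 0.64 (permutation p = 0.00544, adjusted p = 0.0192), and r = 0.60 without the 2 farthest pigs, but in group IM5, where it varied little, r was 0.12. Its correlations were -0.61 with UTRN, 0.67 with SGCB and 0.57 with SSPN, of the same signs as those of the bright probe set. With SGCA the signs differed, at 0.25 for the dim and -0.08 for the bright probe set. Over 13256 probe sets with 1 gene symbol, 90% of the r values with the dim DMD probe set lay between -0.51 and 0.58, a range that includes its r with SSPN. SGCA stood outside this pattern. Its r with the other members lay between -0.10 (SGCB) and 0.25 (dim DMD probe set), and no pair that included it passed the adjusted threshold. Within groups its sign changed, for example with UTRN, at -0.93 in group CON, 0.32 in IM5 and 0.47 in IM10.

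**Figure D3:**
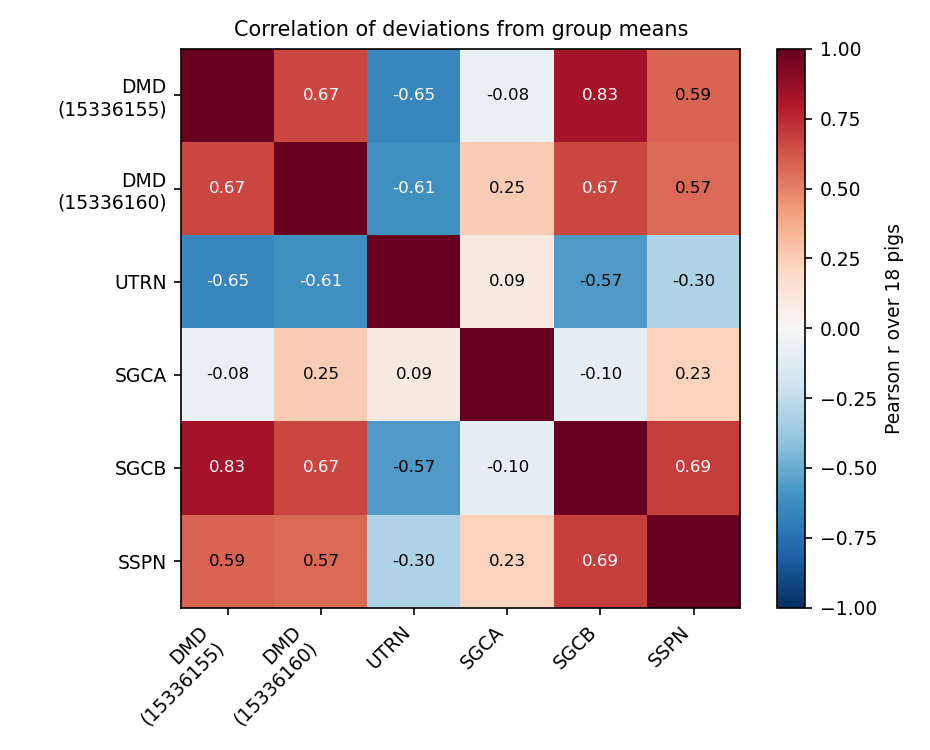
Pearson r, over 18 pigs, of the deviations from group means for each pair of the 6 probe sets, on a colour scale from -1 (blue) to 1 (red). DMD, SGCB and SSPN form a red block, the row of UTRN is blue against them, and SGCA stays between -0.10 and 0.25.

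**Figure D4:**
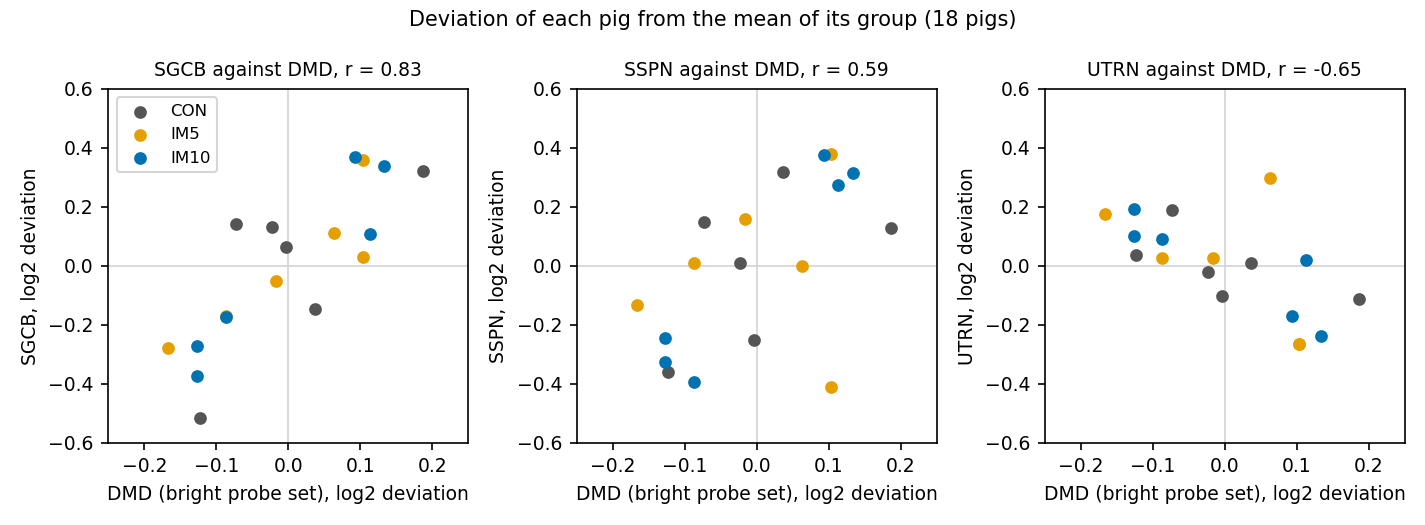
Deviation of each pig from the mean of its group, in log2 units, for SGCB, SSPN and UTRN (vertical axes) against the bright DMD probe set (horizontal axis), coloured by group, 18 pigs in each panel. SGCB rises with DMD (r = 0.83), SSPN less closely (r = 0.59), and UTRN falls (r = -0.65).

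The points of each correlation are 18 RNA samples that all transcripts share, and correlations of the size of the weaker ones were not rare on these arrays. Over 13256 probe sets with 1 gene symbol, 90% of the r values with the bright DMD probe set lay between -0.51 and 0.55, those with UTRN between -0.54 and 0.54, those with SGCB between -0.51 and 0.57 and those with SSPN between -0.47 and 0.54. The pairs DMD with SGCB, DMD with UTRN and SGCB with SSPN lay outside these ranges, and the pairs UTRN with SGCB and DMD with SSPN lay just outside. In rank, SSPN was the 523rd most like the bright DMD probe set, which was the 452nd most like SSPN. SGCB was the 525th most opposed to UTRN, and UTRN the 385th most opposed to SGCB. SGCB was the 140th most like SSPN, and SSPN the 259th most like SGCB. For SGCA the corresponding range was -0.42 to 0.44.

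By this measure the 3 genes most like the bright DMD probe set were NEK7 (r = 0.90), ANO5 (0.89) and UBE2G1 (0.88), and those most like the dim one were NRDC (0.94), RBFOX1 (0.91) and ULK1 (0.89). SGCB was most like LOC100514494 (0.93), SETD3 (0.91) and PCYOX1 (0.91), and SSPN most like SCRN3 (0.86), CTNNA3 (0.86) and MTM1 (0.85), each over 18 pigs. MTM1 encodes myotubularin, a lipid phosphatase mutated in X-linked myotubular myopathy in humans, and RBFOX1 encodes a splicing regulator of muscle and brain. For UTRN the most alike were DENND5A (0.86), NCEH1 (0.85) and GTF3C6 (0.85), and for SGCA ADGRD1 (0.87), TBX15 (0.81) and HOMER3 (0.79). No gene was among the 3 most alike of more than 1 member. These genes were picked as the highest r over all probe sets with 1 gene symbol, so high values follow from the choice. Those of the dim DMD probe set rest on values that say little about the transcript. No link between these genes and the members was tested.

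Marker levels of other cell types varied with some members. Of 48 correlations between the 6 probe sets and the mean levels of 8 marker lists, again as deviations from group means and computed after the values had been seen, 5 passed a permutation test after adjustment over the 48. UTRN varied with the endothelial list, with r = 0.74 (permutation p = 5e-04, adjusted p = 0.024) and rho = 0.73 (permutation p = 0.00108, adjusted p = 0.0408). It was 0.65 without the 2 farthest pigs, and 0.70 in group CON, 0.75 in IM5 and 0.77 in IM10. That list was represented by 6 of 10 markers (CLDN5, ENG, KDR, PECAM1, TEK and VWF), 1 of its 7 probe sets was among the dimmest 30%, and its mean level was 6.46 to 6.74 in group CON, 6.30 to 6.79 in IM5 and 6.44 to 6.95 in IM10. The adipocyte list, with 4 of 6 markers (CIDEC, LEP, LPL and PLIN1), ran opposite to the bright DMD probe set, with r = -0.64 (permutation p = 0.00433, adjusted p = 0.0416), although rho = -0.58 did not pass (adjusted p = 0.0917). Its r was -0.63 without the 2 farthest pigs. Its mean level was 5.53 to 6.30 in group CON, 5.17 to 6.19 in IM5 and 5.56 to 6.495 in IM10, and 1 of its 4 probe sets was among the dimmest 30%. LPL, 1 of its markers, was by itself the gene most opposed to the bright DMD probe set (r = -0.83). The list was not correlated without LPL, so its r may rest on that gene.

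The Schwann cell list was represented by only 2 of 9 markers, SOX10 and NCAM1, of which NCAM1 is also made by muscle fibres at the neuromuscular junction. Its mean varied with SGCB (r = 0.69, permutation p = 0.00141, adjusted p = 0.0338) and with the bright DMD probe set (r = 0.63, permutation p = 0.00425, adjusted p = 0.0416), and opposite to UTRN (r = -0.63, permutation p = 0.0043, adjusted p = 0.0416). The corresponding rho values were 0.58, 0.66 and -0.69, of which the last passed the adjusted threshold (adjusted p = 0.0408). Without the 2 farthest pigs the r values were 0.65, 0.56 and -0.62. Its level was 6.585 to 7.095 in group CON, 6.625 to 7.37 in IM5 and 6.245 to 7.215 in IM10. No member passed against the muscle fibre, macrophage, fibroblast, smooth muscle or satellite cell lists. The part of these cell types in the variation of the members among pigs was not tested. Nor was that of array quality, with which the members had r between -0.55 (dim DMD probe set with the array median) and 0.54 (SSPN with the mean correlation of the array with the others).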

How the data were processed

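Per the study's methods and labels, total RNA of 6 randomly selected pigs per group was hybridised to Affymetrix Porcine Gene 1.0 Sense Target arrays. The authors deposited log2 values, which they had made with RMA in Affymetrix Expression Console (version not given in the sources used here). RMA subtracts background, gives the probe intensities of all arrays the same distribution and then summarises the probes of a transcript. This narrows differences that affect a whole array. The values, given to 2 decimals, were used without further normalization. In the annotation, 13257 of 25388 probe sets carried 1 gene symbol, 427 several and 11704 none. No genome coordinates or sequences were used.

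Group means were fitted to all 18 arrays together with limma 3.58.1 in R 4.3.3, a procedure tested on simulated data, with Benjamini-Hochberg adjustment over all probe sets. Correlations used 100000 permutations (two-sided) in Python 3.11.15 with scipy 1.17.1. The permutations ran over all pigs and did not allow for the group means removed beforehand. The transcripts named by rule are the members, the called probe sets of the partner lists, and the 3 genes most like each member. SNTB1, DPM1, DPM2, DPM3, B3GALNT2, B4GAT1, POMGNT1, TMEM5 and LPL were singled out after their values were seen. Other partners and the markers are named to describe their lists. The members, lists and tests were chosen with earlier results of these data known. The alternatives were the methods' t-test, a block on replicate number, a fit restricted to the 2 groups compared, omission of the dimmest 30% of probe sets, quantile normalization, centring on medians, weights for arrays, a robust prior with trend, and omission of single pigs. The number of arrays limits the precision.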

Additional observations from a re-analysis of the deposited data

Results flagged for a closer look

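LAMA2 (log2 change -0.267) and ANO5 (-0.285) were the only transcripts of the partner lists for which groups IM10 and IM5 differed by the thresholds used here while neither was called against group CON, and the difference itself was the limma comparison of group IM10 with group IM5 (adjusted p = 0.931 for both). Both calls were also lost in 4 of 8 other alternatives, the methods' t-test, the fit of 2 groups only, quantile normalization and array weights, with the direction kept. Dixon's test for a single pig far from the rest of its group was applied to 48 sets of 6 pigs, the 3 groups of the 6 probe sets of the complex, of LAMA2, of ANO5 and of the 8 marker list levels. None passed its critical ratio, where chance would give 2.4. Closest to it were LAMA2 in IM10 replicate 2 (ratio 0.616), SGCA in IM5 replicate 5 (0.608) and the macrophage list in IM10 replicate 2 (0.603).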

How the results depend on the processing

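No probe set of the complex was called under any alternative. Over the members, the log2 changes stayed between -0.08 and 0.07 under the alternatives that kept all pigs and between -0.151 and 0.118 with 1 pig left out, and many changed sign. The sign turned for SGCB in group IM10 compared with group CON with array weights (0.027), and in group IM10 compared with group IM5 for UTRN (0.009) and the bright DMD probe set (-0.006) with quantile normalization, for SSPN (-0.006) and the bright DMD probe set (-0.009) with median centring, and for the dim DMD probe set (0.012) with array weights.

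With 1 pig left out, the changes in group IM10 compared with group CON ranged over -0.063 to 0.001 (bright DMD), -0.084 to 0.026 (dim DMD), -0.105 to 0.029 (SGCA), -0.108 to 0.069 (SGCB), -0.1 to 0.054 (SSPN) and -0.012 to 0.074 (UTRN). In group IM5 compared with group CON they ranged over -0.069 to 0.041 (dim DMD), -0.151 to 0.035 (SGCA), -0.05 to 0.118 (SGCB), -0.114 to 0.044 (SSPN) and -0.028 to 0.084 (UTRN), and the bright DMD probe set kept its sign. In group IM10 compared with group IM5 the ranges were -0.023 to 0.035 (bright DMD), -0.063 to 0.047 (dim DMD), -0.065 to 0.093 (SGCA), -0.132 to 0.016 (SGCB), -0.069 to 0.092 (SSPN) and -0.058 to 0.054 (UTRN). Of the correlations, the bright DMD probe set with SGCA turned to 0.005 with median centring and UTRN with SGCA to -0.187 without the 2 farthest pigs. With 1 pig left out, r reached 0.106 for the bright DMD probe set with SGCA, -0.242 for UTRN with SGCA and -0.0147 for SGCA with SSPN, against -0.08, 0.09 and 0.23 over all pigs.

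Over all probe sets, the calls at the thresholds of the study numbered 354, against 582, in group IM10 compared with group CON, 282, against 532, in group IM5 compared with group CON and 394, against 698, in group IM10 compared with group IM5 without the dimmest 30%, where fewer probe sets were tested. The methods' t-test called 351, against 532, in group IM5 compared with group CON, and the overlap of these lists was not counted. The 1 probe set past the adjusted threshold in group IM10 compared with group CON was lost (0) with that t-test, the fit of 2 groups only, the replicate block, quantile normalization and median centring, and leaving out 1 pig gave 0 to 2. Replicate numbers named different pigs. Same-numbered pigs of different groups deviated together with r between -0.122 and 0.305 (mean 0.073 over 18 pairs). Differently numbered pigs did so with r between -0.271 and 0.236 (mean -0.015 over 90 pairs). The replicate block called 0 members in each comparison. In the partner lists, counted under these alternatives after the values had been seen, quantile normalization called 1 probe set, against 0, in group IM10 compared with group CON, which was in the glycosylation list. In group IM10 compared with group IM5, the methods' t-test, the fit of 2 groups only, quantile normalization and array weights each called 0, against 2. Leaving out 1 pig gave 0 to 4 calls in group IM10 compared with group CON (0 to 3 in the glycosylation list), 0 to 1 in group IM5 compared with group CON and 0 to 3 in group IM10 compared with group IM5.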
